A study of Homo sapiens with 6 samples.

Results

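SLC1A5 is the plasma membrane exchanger of glutamine and other small neutral amino acids, also named ASCT2. It was examined here in a CRISPR interference (CRISPRi) screen together with its SLC1 relatives SLC1A1, SLC1A2, SLC1A3, SLC1A4, SLC1A6 and SLC1A7 and with SLC3A2, SLC7A5 and SLC7A11, amino acid transport proteins of the SLC3 and SLC7 families. These 10 genes, of 18905 with analysed sgRNAs, were taken by the gene name of each sgRNA, and the transcription start sites that the sgRNA names give (P1, P2, or P1P2 where the sgRNAs serve both) were kept apart. The 10 genes had 12 start sites of 20525 and 58 analysed sgRNAs of 101314. SLC1A5 was chosen by its low phenotype in these same counts, and the others as relatives with their phenotypes known. The phenotypes below are therefore a description, with no test.

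The screen asked which genes set the fluorescence of a receptor reporter after agonist. The cells were HEK293 FLP-In, a human embryonic kidney line. They carried a tagged delta opioid receptor with the recycling sequence (MRS) of the mu opioid receptor added at its C terminus. It was fused to the peroxidase APEX2, and the paper names it DOR-MRS(WT)-APEX2. The cells also carried dCas9-KRAB-BFP, a repressor that an sgRNA brings to a start site. By the labels, all groups were transduced at a multiplicity of infection of 0.2 and selected with 0.75 µg/ml puromycin for 3 days. Knockdown lasted 8 days by the labels, and 10 µM DADLE (an opioid peptide agonist) was given for 90 min in all groups. The peroxidase turned 100 µM Amplex UltraRed into a fluorescent product.

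Cells were sorted into the bottom and the top fluorescence quartile, separately for 3 sublibraries of sgRNAs named H17, H23 and H456. The 6 groups had 1 library each, so no value has a replicate check, and a difference between quartiles cannot be told apart from a difference between 2 libraries. The reporter line came from clonal populations, no group went without agonist, and the transcripts of the targeted genes were not measured. The last letter of each library name (T or B) was at odds with the quartile in the sample title, and the titles, which match the letters that the deposited tables carry, were followed. By the titles, VPS29, VPS35 and VPS26A, subunits of the endosomal recycling complex Retromer, had means of −1.60, −0.85 and −0.71 on the phenotype scale explained below, so their sgRNAs were more frequent in the bottom quartile. H17 held 8 of the genes at 10 start sites, H23 held SLC7A5 and H456 held SLC3A2. Total reads ranged from 23426498 to 50486627 per library.

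Amino acid carriers of the plasma membrane fall into families by fold and by what drives them. The SLC1 family holds the sodium-coupled glutamate transporters, which clear glutamate at synapses and in epithelia, and the neutral amino acid exchangers SLC1A4 and SLC1A5. SLC3A2, the heavy chain 4F2hc or CD98hc, pairs with light chains of the SLC7 family. Among these SLC7A5 (LAT1) exchanges large neutral amino acids, with glutamine as a usual counter substrate, and SLC7A11 (xCT) takes up cystine in exchange for glutamate. In proliferating cell lines SLC1A5 is known as a main route of glutamine entry.

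The files hold no sgRNA sequence, but RefSeq (GRCh38.p14) lists 3 starts of SLC1A5, on the minus strand, the second 1301 and the third 3780 bases downstream of the first. The windows around the first and the third start are shown because the sgRNAs of P1 and P2 lay a like distance apart, as given below. Each runs from 250 bases before the start to 50 after it, 5′ to 3′ on the strand of the gene, with motif matches in capitals.

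SLC1A5 start 1, chr19:46788545-46788844, minus strand: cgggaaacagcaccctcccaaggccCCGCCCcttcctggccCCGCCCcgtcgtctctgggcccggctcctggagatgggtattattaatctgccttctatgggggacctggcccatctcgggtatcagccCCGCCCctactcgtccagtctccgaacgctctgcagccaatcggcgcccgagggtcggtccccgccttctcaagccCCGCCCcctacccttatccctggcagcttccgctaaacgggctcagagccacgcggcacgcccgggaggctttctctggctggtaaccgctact
SLC1A5 start 3, chr19:46784765-46785064, minus strand: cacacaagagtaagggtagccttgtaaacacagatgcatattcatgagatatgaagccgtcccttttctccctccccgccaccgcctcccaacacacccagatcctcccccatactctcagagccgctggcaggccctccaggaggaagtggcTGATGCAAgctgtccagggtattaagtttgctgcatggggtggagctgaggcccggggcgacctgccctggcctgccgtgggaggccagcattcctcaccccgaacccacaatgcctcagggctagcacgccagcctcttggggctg

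The capitals in the window of start 1 mark 4 matches to GGGCGG, the core of the GC box, all on the opposite strand and so read as CCGCCC. The capitals in the window of start 3 mark 1 match to TGATGNAA, the core of the amino acid response element. The search covered both strands, and another motif, the E-box CACGTG, was in neither window. The window of the second start, which is not shown, held 1 match to CACGTG. Of 35116 RefSeq promoter windows of this length, 45.0% held GGGCGG, 3.62% held TGATGNAA and 7.26% held CACGTG. Of the letters, 66.7% were G or C in the window of start 1 and 60.7% in that of start 3. A match is a description and no evidence of binding. The sources used here name no build for where the sgRNAs lie, so none was placed on these windows and only distances were compared.

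The phenotype of an sgRNA compares its reads between the quartiles as log2 of the top share over the bottom share, and is set to 0 at the median of nontargeting control (NTC) sgRNAs in the same sublibrary. A negative phenotype means that cells with the sgRNA were more frequent among the dim cells. At P1 of SLC1A5 all 5 sgRNAs were more frequent in the bottom quartile. They summed to 8633 reads there and 1919 in the top quartile. The mean phenotype was −1.81 ± 0.52 (SD over 5 sgRNAs), which is a 3.51-fold higher share in the bottom quartile. By this mean, P1 of SLC1A5 was second of the 20525 start sites and second of the 6502 in H17. The first rank pools sublibraries of unlike spread, with NTC SDs of 0.47 in H17, 0.28 in H23 and 0.30 in H456.

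From the most upstream sgRNA of P1 to the most downstream, the first had 1995 reads in the bottom library and 275 in the top library. The second, 21 bases downstream, had 2645 and 471 reads. The third, at 29 bases, had 1668 and 478 reads. In these sgRNAs, as in the remaining pair, the bottom count was the higher one. The fourth, at 45 bases, had 1293 and 375 reads, and the fifth, at 221 bases, 1032 and 320 reads. No top count of the 5 reached the lowest bottom count.

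The phenotypes in the same order were −2.55, −2.18, −1.49, −1.47 and −1.38. Exact binomial 95% intervals ran from −2.73 to −2.36 for the first, from −2.32 to −2.03 for the second and from −1.56 to −1.19 for the fifth. The first and the second were apart from each other and from the rest by more than counting error, whereas the intervals of the third, the fourth and the fifth overlapped. Such intervals cover counting error only, since reads from PCR without molecular identifiers are not independent molecules. The first sgRNA was on the plus strand and the other 4 on the minus strand. The first to the fourth lay within 45 bases, and the second to the fourth within 24, so they targeted nearly the same place and were not independent of each other.

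**Figure D1:**
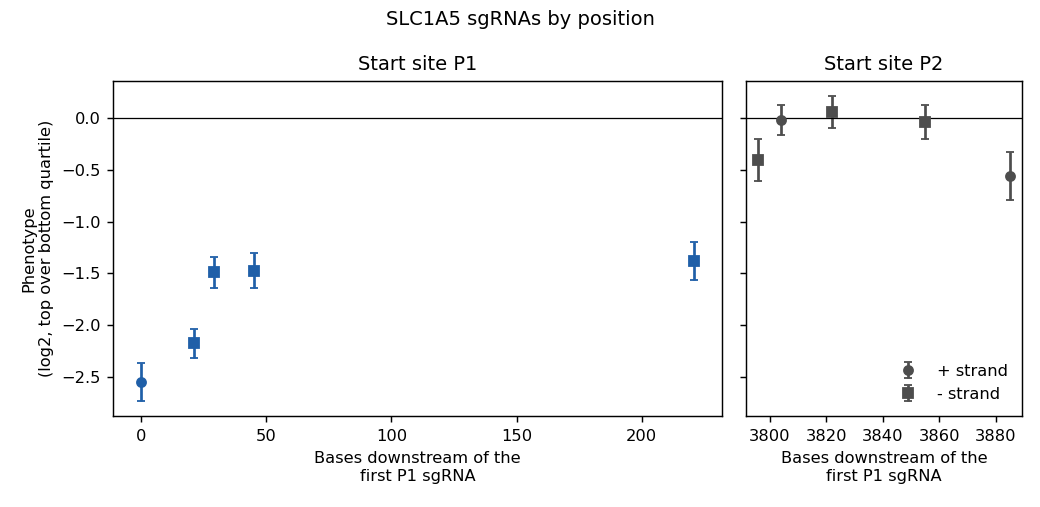
Phenotype of each SLC1A5 sgRNA (y axis, log2 of top over bottom quartile, relative to NTC sgRNAs) against its distance in bases downstream of the first P1 sgRNA (x axis, with separate panels for P1 and P2). Circles and squares are sgRNAs on the plus and the minus strand, and bars are exact binomial 95% intervals for counting error. The 5 P1 sgRNAs sit between −2.55 and −1.38, and the 5 P2 sgRNAs between −0.56 and 0.06.

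P2 of SLC1A5 was targeted 3796 to 3885 bases downstream of the first P1 sgRNA, with 3575 bases between the nearest sgRNAs of the pair of sites. Its sgRNAs summed to 3353 reads in the bottom library and 2483 in the top library. Their phenotypes, from upstream to downstream, were −0.40, −0.02, 0.06, −0.04 and −0.56, and the mean was −0.19 ± 0.27 (SD over 5 sgRNAs). The middle 3 had intervals that held 0, and the outer pair lay below it. No P2 sgRNA reached the range of the P1 sgRNAs.

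P1 lay 1.62 below P2. Of 1576 genes with 2 or more measured start sites, 4.44% had means at least 0.5 apart, and SLC1A5 had the second largest gap after C6orf62 at 1.65. The gap holds the low P1 value by which SLC1A5 was chosen, so nothing is read from this share or rank. SLC1A3, the only other transporter here with 2 start sites, had means 0.19 apart. That gap was smaller than the SD over sgRNAs of either of its sites.

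The NTC sgRNAs of H17 had a long lower tail, which limits what 1 sgRNA shows. The 553 of them had an SD of 0.47, a 1st percentile of −2.23 and a 5th percentile of −0.76. For H23 and H456 the 1st percentiles were −0.74 and −0.83. Of the 58 sgRNAs, 1 lay below the 1st percentile of its NTC sgRNAs, the first of SLC1A5 P1, where 1.01% of all targeting sgRNAs did, and 0 lay above the 99th percentile, where 1.11% did. At or below −1.38, the highest of the 5 P1 sgRNAs, were 10 of 553 NTC sgRNAs (1.81%) and 327 of 31572 targeting sgRNAs in H17 (1.04%). All sgRNAs of a site were at or below this value in 2 of 20402 start sites with 4 or more sgRNAs, SLC1A5 P1 among them. Because the value was taken from SLC1A5 P1 itself, that site meets it by construction, and nothing is read from this count.

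**Figure D2:**
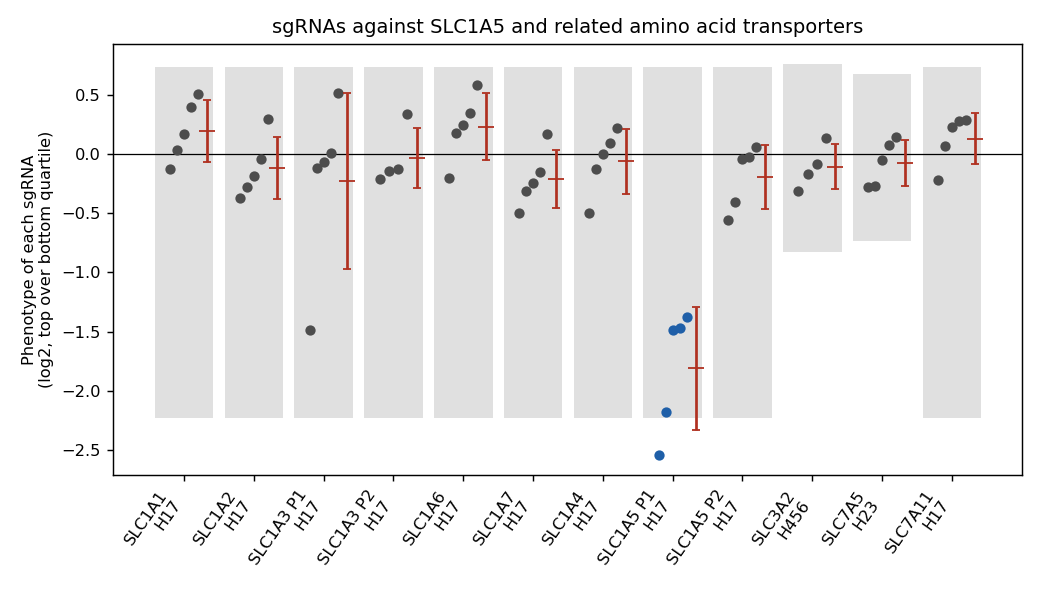
Phenotype of each analysed sgRNA (points, y axis, log2 of top over bottom quartile) at the 12 start sites (x axis, with the sublibrary under each name), SLC1A5 P1 in blue. Red bars are the mean ± SD over sgRNAs, and grey blocks span the 1st to 99th percentile of NTC sgRNAs in that sublibrary. At SLC1A5 P1 the 5 points lie between −2.55 and −1.38, while the means of the other 11 sites lie between −0.23 and 0.23.

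Start sites were called at a mean at or past 0.5 in either direction, that is 1.41-fold. Of the 12 sites, 1 was at or below −0.5, SLC1A5 P1, against 1.34% of all start sites and 2.46% of those in H17, and 0 were at or above 0.5, against 0.171% of all. Since the low value of SLC1A5 was known when the genes were chosen, nothing is read from these shares. The other 11 sites had means from −0.23 to 0.23, with 8 negative and 3 positive and a median of −0.08. The median of all start sites was 0.000868 and their SD 0.17. Each of the 11 sites held sgRNAs of both signs. Of their 53 sgRNAs, 52 were within 0.6 of 0, and 0 lay outside the span of those percentiles.

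SLC1A4, or ASCT1, is the closest relative of SLC1A5 and exchanges alanine, serine, cysteine and threonine. Its 5 sgRNAs had 317, 1045, 1297, 1163 and 724 reads in the bottom library and, in the same order, 234, 597, 1117, 936 and 681 in the top library. The phenotypes were −0.13, −0.49, 0.10, −0.00054 and 0.22. Their mean was −0.06 ± 0.28 (SD over 5 sgRNAs), so the sgRNAs scattered about 0 by more than the mean. The lowest of them was above every P1 sgRNA of SLC1A5.

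SLC1A1 (EAAT3) is the glutamate transporter of neurons and of kidney and gut epithelium. Its sgRNAs had 269 to 1791 reads in the bottom library and 308 to 1479 in the top library. The phenotypes were 0.17, −0.13, 0.51, 0.40 and 0.04, with a mean of 0.20 ± 0.26 (SD over 5 sgRNAs). Of the 5, 4 were more frequent among the bright cells. Its mean was above 0 by less than its SD.

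SLC1A2 (EAAT2, or GLT-1) is the main glutamate transporter of astrocytes. Its sgRNAs had 74 to 1082 reads in the bottom library and 46 to 757 in the top library. The mean phenotype was −0.11 ± 0.26 (SD over 5 sgRNAs), with values of −0.04, −0.18, −0.28, 0.30 and −0.37. The sgRNA of the lowest phenotype was the one with 74 and 46 reads, whose interval ran from −0.94 to 0.18 and held 0.

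SLC1A3 (EAAT1, or GLAST), a glutamate transporter of astrocytes and other glia, was targeted at both P1 and P2. The P1 sgRNAs had 357, 1667, 1292, 1219 and 893 reads in the bottom library and 412, 1284, 959, 351 and 726 in the top library. The fourth alone was far more frequent in the bottom quartile, with a phenotype of −1.48 (interval −1.66 to −1.31), inside the range of the SLC1A5 P1 sgRNAs. The others were between −0.12 and 0.52. The mean of −0.23 ± 0.75 (SD over 5 sgRNAs) rested on that sgRNA, and without it the mean was 0.09 over 4 sgRNAs. At P2 the 4 analysed sgRNAs had phenotypes of −0.14, 0.34, −0.13 and −0.21, with a mean of −0.03 ± 0.25 (SD).

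SLC1A6 (EAAT4), the glutamate transporter of cerebellar Purkinje cells, had the highest mean of the 12 sites. Its sgRNAs had 327, 351, 658, 572 and 917 reads in the bottom library and 299, 425, 462, 546 and 942 in the top library. The phenotypes were 0.18, 0.59, −0.20, 0.25 and 0.35, with a mean of 0.23 ± 0.29 (SD over 5 sgRNAs). Of the 5, 4 were positive, and the mean was smaller than its SD.

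SLC1A7 (EAAT5), a glutamate transporter of the retina, had sgRNAs with 147 to 1767 reads in the bottom library and 133 to 1280 in the top library. The phenotypes were −0.31, −0.25, −0.50, −0.15 and 0.17, and their mean was −0.21 ± 0.25 (SD over 5 sgRNAs). Its 4 negative sgRNAs had intervals below 0, and the positive one, with 147 and 133 reads, an interval that held 0. A sixth sgRNA, with 2 and 9 reads, was left out for its depth, and with a minimum of 1 read, which lets it in, the mean turned to 0.24.

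SLC7A5 was the only one of the 10 genes in H23. Its sgRNAs had 401, 560, 527, 739 and 1154 reads in the bottom library and 393, 734, 603, 926 and 1135 in the top library. The phenotypes were −0.28, 0.14, −0.05, 0.08 and −0.27, and the mean was −0.08 ± 0.19 (SD over 5 sgRNAs). The 5 values fell on both sides of 0.

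SLC3A2, the partner chain of SLC7A5 and SLC7A11, was in H456 with 4 sgRNAs. They had 985, 1998, 364 and 1082 reads in the bottom library and 546, 1294, 191 and 511 in the top library. Their phenotypes were −0.08, 0.14, −0.16 and −0.31, with a mean of −0.11 ± 0.19 (SD). The last had an interval of −0.47 to −0.16, and the mean was smaller than its SD.

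SLC7A11 had sgRNAs with 298 to 1727 reads in the bottom library and 294 to 1462 in the top library. The phenotypes were −0.21, 0.07, 0.29, 0.23 and 0.28, and the mean was 0.13 ± 0.21 (SD over 5 sgRNAs). Its 4 positive sgRNAs stood against 1 negative, again with a mean smaller than its SD.

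In order of their means the sites ran from SLC1A5 P1 through SLC1A3 P1, SLC1A7, SLC1A5 P2, SLC1A2, SLC3A2, SLC7A5, SLC1A4, SLC1A3 P2, SLC7A11 and SLC1A1 to SLC1A6. From SLC1A3 P1 upward, each site differed from its neighbour in this order by less than the SD over sgRNAs of either. Only the step from SLC1A5 P1 to SLC1A3 P1 was larger than both SDs. For scale, the median SD over sgRNAs among H17 start sites with 5 of them was 0.27.

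**Figure D3:**
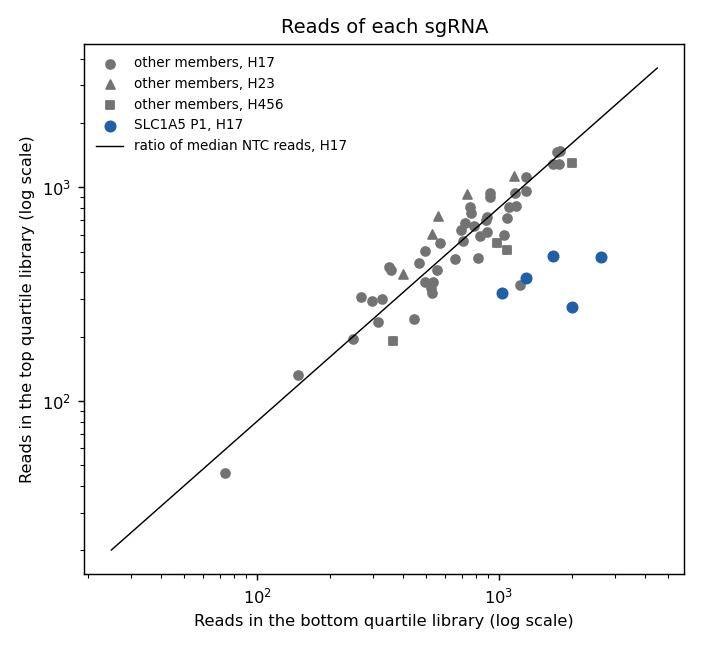
Reads of each sgRNA in the bottom quartile library (x axis) and the top quartile library (y axis), both on log scales. Blue points are SLC1A5 P1, and grey points the other start sites by sublibrary; the line is the ratio of the median NTC reads in H17 (727 and 584). Of the H17 points, the 5 blue ones fall farthest under the line, together with 1 grey point, the SLC1A3 P1 sgRNA with 1219 and 351 reads. Points of the other sublibraries are not to be read against this line. Their median NTC reads were 1121 and 1312.5 in H23, and 1210 and 721 in H456.

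The reads of an sgRNA in both libraries together come from the same counts as the phenotype, so they are a description too. At SLC1A5 P1 the 8633 bottom reads, whose excess is its phenotype, made up most of the sum. Relative to the median NTC sgRNA, the mean log2 reads of SLC1A5 P1 were 0.60 ± 0.46 (SD over 5 sgRNAs), above 91.3% of the H17 start sites. P2 of SLC1A5 was at −0.27 ± 0.52, above 38.7% of them. SLC7A5 lay low in its sublibrary, at −0.86 ± 0.58 and above only 4.12% of the start sites of H23. SLC1A2 had a like mean of −0.87 ± 1.66, above 8.17% of those in H17, with 1 sgRNA of few reads. SLC3A2 was at −0.40 ± 1.06, above 36.7% in H456. Without a count from unsorted cells or the plasmid pool, the starting share of an sgRNA is not known, and these values do not measure growth.

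Reads of the members' sgRNAs in the libraries of the other sublibraries were few. They made up 0.620% of all their reads, and 0.284% for SLC1A5 P1. The highest share of a single sgRNA was 4.72%, for one of SLC7A5. Among NTC sgRNAs the median share was 0.485% and the highest 23.7%. None of the 58 sgRNAs was also listed under another gene.

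By mean phenotype, the start sites next above SLC1A5 P1 among those with 4 or more sgRNAs were HIST1H2AJ, VPS29 and P2 of C6orf62. HIST1H2AJ, a histone gene, was 0.16 higher, but its 5 sgRNAs ran from −3.73 to 0.04. VPS29, a subunit of the endosomal recycling complexes Retromer and Retriever, was at −1.60 ± 0.46 (SD over 6 sgRNAs), higher by 0.21. It was in H23, where NTC sgRNAs had an SD of 0.28, against 0.47 in H17, so the means do not rank strength. Each VPS29 sgRNA, the highest at −1.05, lay below the NTC 1st percentile of H23, −0.74. At SLC1A5 P1, 1 of 5 lay below that of H17, −2.23. C6orf62 P2 was at −1.52 ± 1.05 (SD over 5 sgRNAs). SLC1A5 P1 differed from each of these by less than its SD of 0.52. The other Retromer subunits VPS35 and VPS26A, also in H23, had means of −0.85 ± 0.75 and −0.71 ± 0.92, above that of SLC1A5 P1.

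Of 369 start sites of 340 genes with an SLC name, 3 were at or below −0.5 (0.813%) and 2 at or above 0.5 (0.542%). Over all start sites the shares were 1.34% and 0.171%. SLC1A5 was chosen for its low value and the counts are small, so nothing is read from these shares. The 3 were SLC1A5 P1, SLC4A11 at −0.58 ± 0.44, a membrane transporter known from the cornea, and SLC25A20 at −0.54 ± 0.51, the mitochondrial carnitine carrier. The sgRNA nearest to 0 was at −1.38 in SLC1A5 P1, at −0.11 in SLC4A11 and at −0.09 in SLC25A20.

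Other carriers of amino acids were counted by family. Of 12 start sites of other SLC7 carriers and SLC3A1, 0 were at or below −0.5 and 1 was at or above 0.5. It was SLC7A6 (y+LAT2), another partner of SLC3A2, with a mean of 0.51. Its 5 sgRNAs ran from −0.09 to 1.08, all with fewer reads than the median NTC sgRNA, and the 2 highest had 104 and 126, and 113 and 140, reads in the bottom and top libraries. The lowest site was SLC7A1, a cationic amino acid carrier, at −0.27, with a median over sgRNAs of −0.08. The list had a median of 0.09.

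None of the 12 SLC38 start sites was called in either direction. These are the sodium-coupled neutral amino acid transporters that also carry glutamine, and their median was 0.04. The lowest was SLC38A1 at −0.29, although its 5 sgRNAs ran from −1.65 to 0.35 with a median of 0.23. The highest was SLC38A6 at 0.28. Of 19 start sites of SLC6, SLC16, SLC36 and SLC43 amino acid carriers, 0 were called in either direction. They ranged from −0.20 in SLC6A17, a carrier of synaptic vesicles, to 0.31 in SLC6A6, the taurine transporter, with a median of 0.03.

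Enzymes that use what these carriers bring in were counted in the same way. Of 30 start sites of glutamine, glutamate, asparagine and serine enzymes, 0 were called in either direction. The lowest was PYCR1, of proline synthesis, at −0.16, and the highest PFAS, a glutamine-using enzyme of purine synthesis, at 0.39, with a median of 0.04 over the list. Of 7 start sites of the way from cystine to glutathione, 0 were called. They ran from −0.08 in GSR, glutathione reductase, to 0.35 in CBS, cystathionine beta-synthase, with a median of 0.05.

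Of 24 start sites of amino acid sensing, which hold the mTORC1 arm and the GCN2 arm with ATF4 and DDIT3, 1 was at or below −0.5 and 0 were at or above 0.5, with a median of −0.07. RPTOR, the mTORC1 subunit that binds its substrates, was at −0.62. All 5 of its sgRNAs were negative, from −2.14 to −0.12, and the lowest, with 197 and 53 reads, set much of the mean, since the median was −0.23. The highest of the list was GATSL3, an arginine sensor, at 0.32. Over all start sites the shares were 1.34% and 0.171%, and nothing particular to a list is read from its counts.

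**Figure D4:**
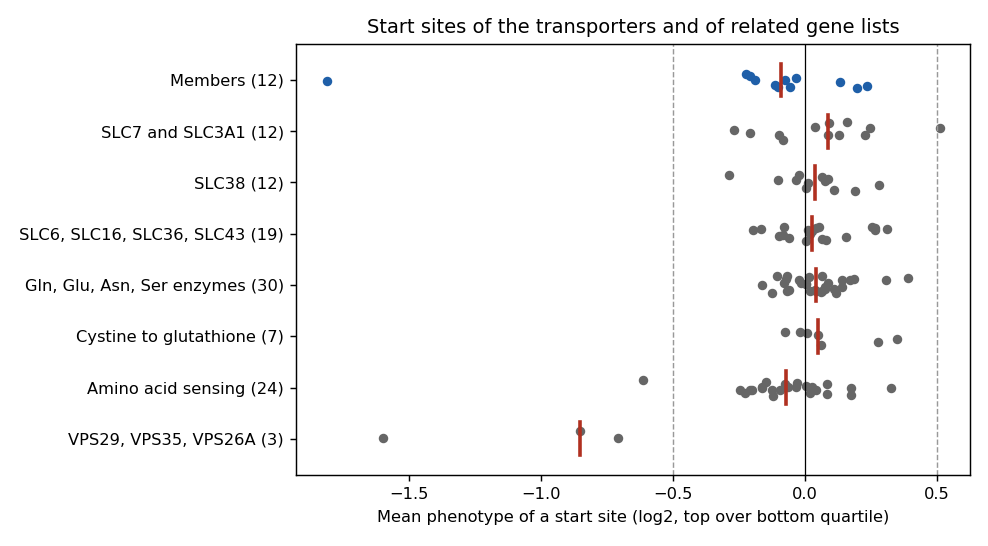
Mean phenotype of each start site (points, x axis, log2 of top over bottom quartile) of the 10 transporter genes, of 6 related gene lists and of the Retromer subunits VPS29, VPS35 and VPS26A (rows, with the number of start sites in brackets; vertical spread within a row has no meaning). Red lines are medians and dashed lines the calls at −0.5 and 0.5. SLC1A5 P1 (in H17) is at −1.81 and VPS29 (in H23) at −1.60, while the other 11 transporter sites lie among the list values. NTC sgRNAs had an SD of 0.47 in H17 and 0.28 in H23, so these means are not to be ranked by strength.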

How the data were processed

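Genomic DNA from 6 sorted cell populations, a bottom and a top quartile for each of 3 sublibraries, was sequenced over the integrated sgRNAs. The authors amplified them with 27 PCR cycles without molecular identifiers, cropped reads to 38 bp and counted them by ScreenProcessing, version 0.1. The deposited files hold raw counts per sgRNA, not normalized, with totals of 23426498 to 50486627 reads per library. Uneven PCR can spread single phenotypes beyond counting error. Groups follow the sample titles.

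Each gene was assigned to the sublibrary holding its reads. sgRNAs with at least 50 reads in one of the pair of libraries were analysed, and 1 was added to both counts of an sgRNA with a 0. Of 120 listed sgRNAs of the 10 genes, 60 had no read in that sublibrary and 2 fell below the minimum. Phenotypes were averaged over at least 2 sgRNAs per start site. Intervals are exact binomial (Clopper-Pearson) at 95%. Calculations used Python 3.11.15, numpy 2.4.6, pandas 2.3.3, scipy 1.17.1 and, for the library factors of edgeR 4.0.16 and DESeq2 1.42.0 in alternatives, R 4.3.3. The calculation was tested on simulated data. With 1 library per group no test was made.

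The members and lists were chosen with earlier results of these data known. Named were all 10 genes, the Retromer subunits VPS29, VPS35 and VPS26A for scale, and the start sites nearest to SLC1A5. Of each list, the sites named had a mean at or past 0.5 in either direction and at least 4 sgRNAs, all of one sign. Where a list had none, its lowest and highest sites were named. GATSL3, SLC4A11 and SLC25A20 were named after their values were seen, and 1 gene that the rule names is not reported here. RefSeq promoter windows were found for 8 of the 10 genes. The alternatives are given after the report.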

Additional observations from a re-analysis of the deposited data

How the results depend on the processing

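The phenotype of SLC1A5 P1 kept its sign and stayed past −0.5 in every alternative that was run. It was −1.49 as the median over sgRNAs, −2.07 as the mean of the 3 sgRNAs farthest from 0, −1.63 without the farthest sgRNA and −1.002 with P1 and P2 pooled, and leaving out each sgRNA in turn gave −1.92 to −1.63. The number of transporter start sites past −0.5 stayed at 1 and past 0.5 at 0. Over all start sites, those at or below −0.5 numbered 275, against 156 by the median, 779 by the 3 farthest and 74 without the farthest sgRNA. Those at or above 0.5 numbered 35, against 138 with at least 1 read in one library, 16 with at least 100, 17 with 50 in both, 311 by the 3 farthest and 4 without the farthest sgRNA. For the other 11 sites 152 values were recomputed, from −0.36 to 0.40, and 3 changed sign. SLC1A7 was 0.24 when the sgRNA with 2 and 9 reads entered, and SLC1A3 P1 and SLC1A4 were 0.09 and 0.05 without the farthest sgRNA. No paired analysis was possible because each group had 1 library. Low reads limit sgRNAs such as the one of SLC1A2 with 74 and 46 reads.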
